A study of Mus musculus with 9 samples.

Results

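Escape e1 is a line of mouse pancreatic tumor cells derived from a parental tumor line and described by its series as resistant to immunotherapy. It was compared here with that parental line, using every sample that carries either label: 3 e1 libraries and 3 parental libraries, 6 of the 9 samples of the series. All of these cells had a C57BL/6 genetic background and were cultured in vitro in DMEM with 10% FBS without treatment. The labels name neither the immunotherapy nor the way e1 was selected, and leave unsaid whether e1 is 1 clone and whether replicate libraries were grown apart. The p-values therefore measure only the spread between these libraries. Expression was given as TPM, a level per transcript length and per library total that keeps no sequencing depth. Differences are e1 minus parental on the log2(TPM + 1) scale, which understates the change of genes at a low level, and are given with a standard error from limma. A gene was tested when it reached 1 TPM in at least 3 of the 6 libraries, which 12160 of 24493 genes did, and was called at an adjusted p under 0.05.

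Epithelial tumor cells are held in sheets by tight junctions, adherens junctions and desmosomes, and their keratin filaments anchor in the desmosomes. Transcription factors of the SNAIL, ZEB and TWIST families repress junction genes, and cells in which they are active can lose contact with their neighbours and take on a mesenchymal form with fibrillar collagen, contractile actin fibres and another set of integrins. Such a change of state is known in pancreatic carcinoma. Interferon-stimulated genes, antigen presentation genes and chemokines set how tumor cells are seen by lymphocytes and which leukocytes they attract.

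Of the 12160 genes, 4036 were called higher in e1 (33.2%) and 4084 lower (33.6%), and 4040 did not pass. The difference reached 1 or more on the log2 scale for 993 of the higher calls (8.17% of genes tested) and for 1566 of the lower calls (12.9%). The median difference over all genes was 0.01. The e1 and parental libraries did not overlap for 8805 of the 12160 genes (72.4%). So many genes passed that the share of a gene group called is read below against these percentages. On log2(TPM + 1), Pearson correlations across genes were 0.991 to 0.995 between parental libraries and 0.842 to 0.846 between a parental and an e1 library. The libraries e1 2 and e1 3 correlated at 0.995, while e1 1 correlated with each of them at 0.986. Parental 2 and parental 3 likewise correlated at 0.995, and parental 1 correlated with them at 0.992 and 0.991.

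Markers of other cell types were measured as lists. Among 12 leukocyte markers, Cd3e, Adgre1, Lyz2 and Tyrobp were listed at 0 in every library. The summed level of the list was 55.4 to 62.1 TPM in parental cells and 9.03 to 15.3 TPM in e1, with Cd14 in the lead. Only 2 of the 12 were tested: Cd14 was lower (-2.50) and the other was higher (0.69). The 8 endothelial markers summed to under 1 TPM in each library, at 0.17 to 0.905. The 11 fibroblast markers summed to 17 to 20.1 TPM in parental cells and 326 to 347 TPM in e1, with the collagens in the lead, while Lum was listed at 0 in all 6 libraries. The 6 smooth muscle and pericyte markers summed to 4.2 to 6.47 TPM in parental cells and 30.2 to 48.2 TPM in e1, with Mcam in the lead, and none was at 0 in all libraries. The 6 acinar markers went in sum from 2.81 to 3.78 TPM to 5.8 to 9.61 TPM, with Cpa1 and Ptf1a listed at 0 throughout, and the 5 Schwann and neural markers went from 16.4 to 16.8 TPM to 5.3 to 6.7 TPM, with Sox10 at 0. The endocrine markers reached no more than 0.0424 TPM in sum and the erythroid markers no more than 1.39 TPM. Few markers of these lists reached the filter: 6 of fibroblasts, 2 of smooth muscle and pericytes, 1 acinar and 1 Schwann and neural. Whether other cells took part in these sums was not tested. The 11 markers of duct and pancreatic tumor epithelium summed to 8370 to 9670 TPM in parental cells and to 1220 to 1270 TPM in e1. All 11 were tested, and 10 were called lower and 1, Sox9, higher. Among those called lower, Krt8 was still at 747 TPM in e1 and the pancreatic factor Pdx1 at 36.7 TPM.

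The promoters of 7 genes are shown as examples of short motifs in groups of genes most of which moved in the same direction. They were chosen among changed genes that carry the motif, and many members of the same groups do not carry it, among them Cldn3. Each is the stretch of 250 bases before a start site, read 5′ to 3′ on the gene's own strand, from RefSeq on GRCm38.p6. Cldn7 has 2 start sites in the table, and the stretch shown lies before the second one, inside the gene. In the first 4, of junction and keratin genes that fell in e1, capitals mark the E-box CAGGTG, or CACCTG on the other strand, the letters known to be bound by SNAIL and ZEB factors.
Cldn4, chr5:134946935-134947184, minus strand: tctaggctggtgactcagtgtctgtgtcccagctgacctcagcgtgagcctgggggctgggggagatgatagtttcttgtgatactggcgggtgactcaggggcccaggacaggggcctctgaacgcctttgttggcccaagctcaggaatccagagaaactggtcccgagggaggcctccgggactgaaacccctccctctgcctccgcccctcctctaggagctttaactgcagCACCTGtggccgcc
Cldn7, chr11:69965171-69965420, plus strand: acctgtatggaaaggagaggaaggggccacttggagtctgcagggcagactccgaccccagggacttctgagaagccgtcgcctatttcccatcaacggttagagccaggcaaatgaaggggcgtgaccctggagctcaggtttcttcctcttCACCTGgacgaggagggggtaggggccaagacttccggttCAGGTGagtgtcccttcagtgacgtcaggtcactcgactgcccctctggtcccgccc
Lsr, chr7:30973470-30973719, minus strand: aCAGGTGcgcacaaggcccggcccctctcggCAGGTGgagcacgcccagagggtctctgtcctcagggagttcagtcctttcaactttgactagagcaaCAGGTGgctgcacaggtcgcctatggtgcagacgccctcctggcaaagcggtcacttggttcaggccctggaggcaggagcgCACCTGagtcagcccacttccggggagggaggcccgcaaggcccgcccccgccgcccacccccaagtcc
Krt7, chr15:101412153-101412402, plus strand: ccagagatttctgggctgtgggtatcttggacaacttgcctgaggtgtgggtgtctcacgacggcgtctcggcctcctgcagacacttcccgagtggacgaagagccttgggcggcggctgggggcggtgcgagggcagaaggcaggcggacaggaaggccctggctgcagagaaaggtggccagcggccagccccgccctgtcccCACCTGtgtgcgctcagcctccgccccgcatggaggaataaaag
In the promoter of Myl9, a contractile gene that rose, capitals mark a CArG box, the site known for serum response factor. In those of the interferon-stimulated genes Isg15 and Ifit1, which rose, they mark interferon-stimulated response elements, overlapping ones joined.
Myl9, chr2:156775214-156775463, plus strand: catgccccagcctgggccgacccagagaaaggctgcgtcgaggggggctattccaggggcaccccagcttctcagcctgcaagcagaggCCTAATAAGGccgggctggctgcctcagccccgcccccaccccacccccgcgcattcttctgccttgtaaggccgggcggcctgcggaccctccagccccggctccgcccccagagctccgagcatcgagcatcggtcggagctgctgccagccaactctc
Isg15, chr4:156200819-156201068, minus strand: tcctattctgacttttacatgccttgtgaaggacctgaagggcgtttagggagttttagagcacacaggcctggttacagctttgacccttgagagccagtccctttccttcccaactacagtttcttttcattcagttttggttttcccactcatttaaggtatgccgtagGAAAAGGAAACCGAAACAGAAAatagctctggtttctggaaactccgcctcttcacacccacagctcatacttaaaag
Ifit1, chr19:34640639-34640888, plus strand: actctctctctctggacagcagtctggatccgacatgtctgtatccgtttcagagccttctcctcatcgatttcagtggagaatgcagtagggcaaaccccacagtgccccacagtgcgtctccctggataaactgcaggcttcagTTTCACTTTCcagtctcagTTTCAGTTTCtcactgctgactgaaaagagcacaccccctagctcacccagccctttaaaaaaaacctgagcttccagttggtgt
The E-box stood on either strand in 11 of the 17 tested tight junction and polarity genes with a promoter in the table (64.7%), in 7 of 10 keratin genes (70.0%), in 8 of 16 mucins and epithelial surface proteins (50%), in 5 of 13 genes of the epithelial cytoskeleton and brush border (38.5%) and in 18.3% of the 9401 tested genes with a promoter. It was present in 31.1% of the genes lower by 1 or more in e1 and in 16.5% of those higher by 1 or more. A CArG box stood in 4 of 16 smooth muscle and actin genes (25%) against 1.45% of tested genes, and the interferon element in 7 of 23 interferon response genes (30.4%) against 3.05%. These groups also hold tested genes that did not pass, among them Bst2, which carries the interferon element. A gene with several start sites was counted if any stretch held the motif. All motif counts are matches of letters in a fixed window. Binding was not measured.

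Genes of the epithelial sheet fell together. Of 22 tested genes of the tight junction and polarity list, 21 were called lower and none higher, with a median difference of -3.25. The claudins seal the space between neighbouring cells. Cldn4 was at 262, 166 and 156 TPM in the parental libraries and at 0.0318, 0 and 0 TPM in e1. Cldn3 was at 268, 239 and 225 TPM in parental cells and 0.336, 0.287 and 0.136 TPM in e1, a difference of -7.61 ± 0.10 (SE, limma adjusted p = 8.43e-09). No e1 library reached 1 TPM for either claudin, and the groups lay far apart. Cldn6, more typical of embryonic epithelium, kept a low level in e1 at 4.11, 3.51 and 2.82 TPM after 477, 447 and 430.5 TPM in parental cells (-6.67 ± 0.11). Lsr, a receptor of the tricellular junctions, was at 112, 125 and 121 TPM in parental cells and 0.545, 0.738 and 0.78 TPM in e1. Of the 24 tested desmosome and adherens junction genes, 20 were lower and 2 higher. Cdh1, E-cadherin, fell from 227 ± 4.92 to 9.56 ± 2.58 TPM (mean ± SD, n = 3 each) and Cdh17, a cadherin of intestinal epithelium, from 202 ± 63.7 to 4.97 ± 1.02 TPM. The desmosomal cadherin Dsg2 fell from 20.7 ± 0.696 to 0.0197 ± 0.00727 TPM. The 2 exceptions were Cdh2, N-cadherin, at 0.365, 0.595 and 0.674 TPM in parental cells and 34.1, 36.5 and 34.3 TPM in e1, and Jup, plakoglobin, which serves both kinds of junction and rose by 0.44 ± 0.11. No e1 library overlapped a parental one for Cdh1 or Cdh2, which held for 72.4% of all tested genes.

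**Figure D1:**
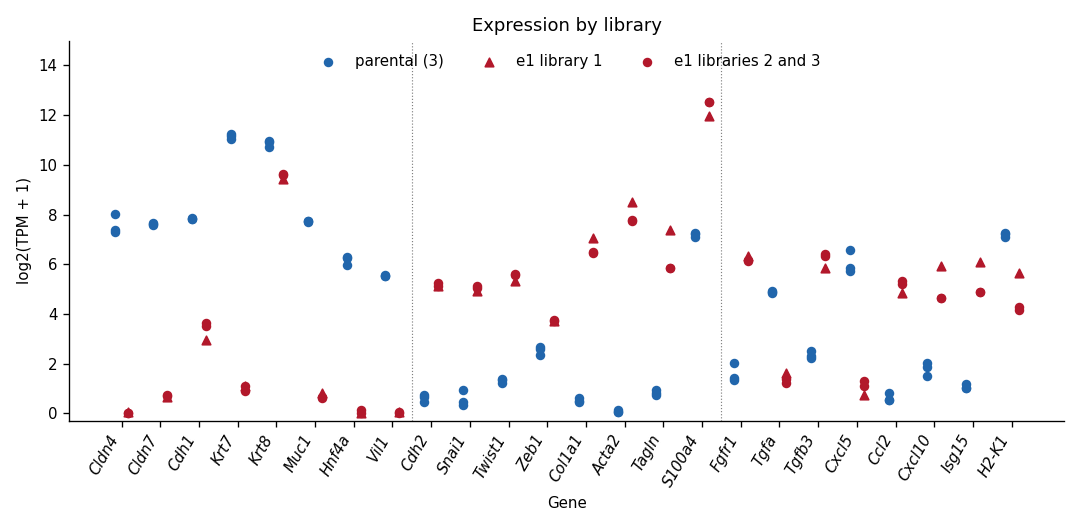
Expression of 24 genes in each library on the log2(TPM + 1) scale, with blue circles for the 3 parental libraries and red symbols for the 3 e1 libraries, e1 library 1 as a triangle. The genes are grouped from left to right as lost junction and surface genes, gained mesenchymal genes, and signalling, chemokine and interferon genes, and for most of them the 3 red symbols lie close together and far from the blue ones.

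Among 12 tested keratins, 10 fell and 1 rose, and the fall was graded. Krt7 went from 2081, 2392 and 2318 TPM to 1.14, 1.16 and 0.835 TPM and Krt20 from 109 ± 24.4 to 0.504 ± 0.31 TPM. Krt19 fell from 2059 ± 325 to 45.2 ± 18.4 TPM, Krt18 from 2266 ± 86.7 to 377 ± 56.2 TPM, and Krt8, its filament partner, from 1873 ± 152 to 747 ± 52.2 TPM. Among these 5 the differences ran from -10.11 for Krt7 to -1.32 for Krt8, and e1 retained the Krt8 and Krt18 pair of simple epithelium at levels far above those of Krt7. Krt14, a basal keratin, was the one that rose, from 2.71, 2.57 and 2.42 to 6.99, 8.88 and 8.26 TPM. All 16 tested genes of the apical cytoskeleton and brush border were lower, with a median of -3.57, and in 10 of these 16 no e1 library reached 1 TPM. Vil1, villin, which bundles actin in microvilli, was at 44.6, 45.5 and 46.3 TPM in parental cells and 0.0352, 0 and 0.0499 TPM in e1. Rab25, which recycles cargo to the apical membrane, was at 97, 63.5 and 64.6 TPM in parental cells and was listed at 0 in all 3 e1 libraries. Of 22 tested mucins and epithelial surface proteins, 21 were lower and none was higher. They included Muc1 (211 ± 3.67 to 0.624 ± 0.136 TPM), the adhesion molecule Epcam (133 ± 32.8 to 0.296 ± 0.0427 TPM), the galectin Lgals4 (714 ± 271 to 1.16 ± 0.604 TPM) and Prom1, the antigen CD133 (91.5 ± 3.32 to 0.0438 ± 0.0447 TPM).

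The regulators of the epithelial state fell as well, with exceptions among pancreatic factors. Of 23 tested epithelial transcription and splicing regulators, 20 were lower and 2 were higher. Hnf4a, a nuclear receptor of gut and liver epithelium, was at 61.9, 76.4 and 74.7 TPM in parental cells and at 0.0124, 0.11 and 0.0175 TPM in e1 (-6.10 ± 0.11, limma adjusted p = 2.02e-08). Esrp1, which directs epithelial splice forms, went from 37.1, 29 and 28.1 to 0.041, 0.022 and 0 TPM and Gata6, a factor of the classical pancreatic cancer subtype, from 17.4, 21.4 and 20.8 to 0.154, 0.102 and 0.17 TPM. All 3 were near 0 in every e1 library. Pdx1 fell less, from 95.6 ± 11.2 to 36.7 ± 4.86 TPM, a difference of -1.36 that stood at -0.87 after centring by chromosome stretch. The 2 that rose were Sox9, a duct and progenitor factor, from 8.56, 4.8 and 4.86 to 20.3, 15.4 and 17 TPM, and Gata4, from 11.3 ± 0.596 to 14.8 ± 0.522 TPM. Gata4 lies on chromosome 14, and its difference of 0.37 turned to -0.21 (limma adjusted p = 0.0295) when each library was centred on the median of consecutive genes of a chromosome stretch. On the opposing side, 14 of 18 tested factors of mesenchymal transition were higher and 3 lower. Snai1 rose from 0.902, 0.356 and 0.244 to 29.3, 31.9 and 33.8 TPM (4.47 ± 0.16, limma adjusted p = 4.43e-07), Twist1 from 1.54, 1.33 and 1.6 to 38.8, 47.9 and 46.9 TPM and Twist2 from 2.61, 2.76 and 3.29 to 32.7, 44.9 and 45.7 TPM. Snai2 reached 20.8, 27 and 25.5 TPM in e1 after 4.05, 3.87 and 4.63 TPM. Zeb1, with 4.05, 5.08 and 5.32 TPM already in parental cells, rose to 12, 12.4 and 12 TPM. Among these 5 factors the log2 difference was largest for Snai1 and smallest for Zeb1. The 3 that fell were Foxf2, the chromatin protein Hmga2 (189.9 ± 12.2 to 74.2 ± 24.4 TPM) and Sox4, whose difference went from -0.37 to -0.77 with libraries centred by chromosome stretch.

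**Figure D2:**
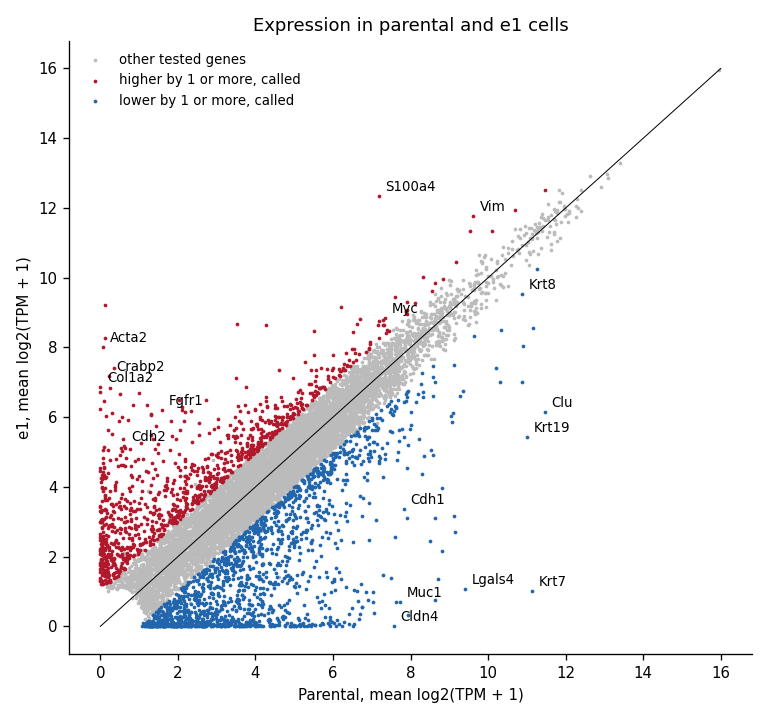
Mean log2(TPM + 1) of the 3 parental libraries on the x axis and of the 3 e1 libraries on the y axis for the 12160 tested genes, red where higher by 1 or more and called, blue where lower by 1 or more and called, grey otherwise. The genes with the largest changes lie along the 2 axes, expressed in one line and near 0 in the other.

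Most tested collagen genes rose, and laminin genes changed in both directions. Of 12 tested collagens 10 were higher, and the 3 genes of collagen types I and III were among the largest gains. For Col1a2 the parental value was 0 in each library, and e1 held 108, 119.9 and 119 TPM. Col3a1 was likewise listed at 0 in parental cells and was at 51.5, 89 and 89.1 TPM in e1, and Col1a1 went from 0.54, 0.354 and 0.4 to 132, 87.3 and 89.8 TPM. Enzymes that cross-link collagen appeared with them. Lox was listed at 0 in parental cells and at 33, 18.7 and 18 TPM in e1, Loxl1 rose from 0.419 ± 0.0562 to 29 ± 0.632 TPM and Loxl3 from 0.334 ± 0.0544 to 16.7 ± 1.17 TPM. Fkbp10, a chaperone of collagen folding, rose from 0.889, 0.927 and 1.18 to 108, 97.9 and 101 TPM. Of 41 tested matrix proteases and their inhibitors, 15 were higher and 21 lower, against 33.2% and 33.6% of all tested genes. Those with the largest falls were 2 serine proteases and an inhibitor of such proteases: Prss22 (132 ± 34.7 to 0.618 ± 0.217 TPM), Tmprss2 (52.5 ± 4.65 to 0.0418 ± 0.0379 TPM) and Spint2 (364 ± 3.25 to 4.54 ± 0.689 TPM). The 15 tested laminin and basement membrane genes split, 6 higher and 7 lower, against 33.2% and 33.6% of all tested genes. Lamb3 and Lama3, chains of the laminin that anchors epithelium to its basement membrane, fell, Lamb3 from 35.2, 60.4 and 59.3 to 0.52, 0.378 and 0.458 TPM and Lama3 from 10.7, 9.04 and 8.94 to 0.0962, 0.301 and 0.232 TPM. Lamb1, a chain of other laminins, rose from 42.4, 31.3 and 33.5 to 156, 80.9 and 83.9 TPM and the proteoglycan Hspg2 from 8.89, 5.9 and 6.64 to 36, 18.1 and 20.3 TPM, both highest in e1 library 1. The Lamb1 difference was more than 1.5 times smaller after centring by chromosome stretch, at 0.98.

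Integrins, the receptors for matrix, changed in both directions. Of 17 tested, 10 were higher and 6 lower, against 33.2% and 33.6% of all tested genes. The collagen receptor chain Itga2 fell from 54.6 ± 6.69 to 0.523 ± 0.188 TPM, the laminin receptor chain Itgb4 from 24.5 ± 0.293 to 1.51 ± 0.414 TPM and Itgb6 from 6.54 ± 1.21 to 0.0554 ± 0.0389 TPM. Itga10 rose from 0.304 ± 0.105 to 15.3 ± 3.98 TPM, Itgb3 from 1.29 ± 0.154 to 9.76 ± 0.713 TPM and Itgb7, known from lymphocytes, from 0.296 ± 0.0412 to 16.8 ± 7 TPM. Ddr2, a receptor kinase for fibrillar collagen, rose from 0.0407 ± 0.0256 to 32.6 ± 2.78 TPM. Of 19 tested smooth muscle and actin genes 14 rose and none fell, with a median of 1.15. Acta2, smooth muscle actin, was at 0.0491, 0.0949 and 0.0292 TPM in parental cells and 358, 217 and 213 TPM in e1 (7.92 ± 0.19, limma adjusted p = 7.63e-08), and Myl9 at 0.0656, 0 and 0 and 20.1, 18.8 and 14.4 TPM. The 6 smooth muscle and pericyte markers summed to 30.2 to 48.2 TPM in e1 against 4.2 to 6.47 TPM in parental cells. Only 2 of the 6 were tested, Cspg4 (0.026 ± 0.00413 to 15 ± 1.79 TPM) among them, and both were higher. The part of these markers in the rise of the smooth muscle and actin list was not tested. Tagln was at 166, 56.1 and 56.8 TPM in e1, about 3 times as high in library 1 as in the others, after 0.671, 0.93 and 0.748 TPM in parental cells, and its difference was 5.52 with all libraries and 5.01 without e1 library 1. Vim, vimentin, was high in the parental line already and rose from 804 ± 199.5 to 3524 ± 215 TPM. S100a4, a calcium-binding protein known from motile cells, rose from 136, 147 and 149.8 to 3982, 5911 and 5866 TPM, while its relative S100a14 fell from 399 ± 70.9 to 0.708 ± 0.174 TPM. Of 21 tested S100 proteins and annexins 7 rose and 8 fell, a share near the background, and with libraries centred by chromosome stretch 4 rose and 12 fell.

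Receptors and ligands of growth factors changed in both directions. Fgfr1 rose from 3.04, 1.51 and 1.71 to 79.7, 69.5 and 71.1 TPM (4.62 ± 0.18, limma adjusted p = 5.38e-07), while the ligands Fgf13 (23.6 ± 4.64 to 0.0281 ± 0.0244 TPM) and Fgf1 (10.1 ± 1.31 to 0.0907 ± 0.0292 TPM) fell. Of 12 tested genes of a list of the EGF receptor family, its ligands and inhibitors 8 fell and 2 rose. Tgfa fell from 28.2, 27.9 and 29.4 to 2.09, 1.34 and 1.58 TPM, Btc from 20.9 ± 1.81 to 1.34 ± 0.274 TPM, and the receptors Erbb3 from 10.7 ± 1.74 to 0.16 ± 0.0453 TPM and Egfr from 14.7 ± 3.1 to 8.51 ± 0.123 TPM. The pair that rose, Lrig1 (17.3 ± 1.56 to 47.7 ± 3.21 TPM) and Errfi1 (98.9 ± 10.5 to 169 ± 33.6 TPM), are known as inhibitors of these receptors. Met, the receptor of hepatocyte growth factor, rose from 34.4 ± 2.13 to 62.3 ± 3.01 TPM, and Axl, a receptor kinase of mesenchymal carcinoma cells, did not pass at 192 ± 10.3 TPM in parental cells and 202 ± 20.6 TPM in e1. Vegfa fell from 78.6 ± 3 to 15.9 ± 1.65 TPM and its relative Pgf from 42.7 ± 12.7 to 1.74 ± 0.475 TPM, whereas Vegfd rose from 0.551 ± 0.171 to 24.9 ± 10.8 TPM and Angptl2 from 1.5 ± 0.49 to 66.5 ± 0.938 TPM. Igf2 appeared, at 0.0512, 0.0165 and 0 TPM in parental cells and 21.2, 18 and 18.5 TPM in e1, and so did H19, the RNA gene that neighbours it, at 0, 0.0539 and 0.0332 and 8.92, 5.72 and 6.95 TPM. These 2 are imprinted, expressed as a rule from 1 parental copy. The other tested imprinted genes went both ways, and Snrpn, at 4.01, 6.84 and 8.57 TPM in parental cells, was listed at 0 in e1.

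Of 40 tested TGF-beta and BMP signalling genes 19 were higher and 15 lower, against 33.2% and 33.6% of all tested genes. The ligands Tgfb3 (4.06 ± 0.492 to 73 ± 14.2 TPM) and Tgfb1 (22.1 ± 1.68 to 63.7 ± 2.25 TPM) rose. Grem1, a secreted BMP antagonist, rose from 0.121, 0.039 and 0 to 23.9, 28.1 and 29.8 TPM and Fstl1, a secreted follistatin-like protein, from 0.701, 0.0992 and 0.122 to 155, 177 and 179 TPM. The BMP target genes Id1 and Id2 fell, Id1 from 338, 421 and 395 to 21.8, 34.5 and 33.5 TPM and Id2 from 155, 161 and 151 to 13.8, 21.7 and 21.6 TPM. The ligand Bmp8b fell from 29.6 ± 6.3 to 0.07 ± 0.0472 TPM. Smad4, the common mediator, did not pass, at 41.4 ± 3.57 TPM in parental cells and 41 ± 2.69 TPM in e1, and Tgfbr2 rose by 0.22 ± 0.07, a call lost without e1 library 2 or 3 or parental library 2 or 3 (0.18 to 0.23) and when libraries were centred by chromosome stretch (0.08, limma adjusted p = 0.247). Among 34 tested Wnt genes 12 were higher and 16 lower, against the same 33.2% and 33.6%. The ligands went both ways: Wnt7a fell from 34.3 ± 3.86 to 0.0254 ± 0.0259 TPM and Wnt10b rose from 0.337 ± 0.132 to 27.4 ± 4.67 TPM. Porcn, the enzyme that lipidates Wnt ligands, fell from 38.7 ± 4.05 to 5.51 ± 0.9 TPM. Of 13 tested Notch genes 6 fell and 1 rose. The ligands Jag1 (38.5 ± 4.85 to 5.8 ± 0.499 TPM) and Jag2 (11.5 ± 0.568 to 0.861 ± 0.0982 TPM) and the target Nrarp (28.7 ± 2.35 to 1.74 ± 0.707 TPM) fell, and the receptor Notch2 rose from 6.96 ± 0.757 to 29.2 ± 1.89 TPM. In the Hedgehog list 6 of 9 tested genes rose and 1 fell: the ligand Dhh fell from 17.5 ± 1.1 to 0.253 ± 0.0715 TPM, and the coreceptors Gas1 (1.13 ± 0.346 to 18 ± 7.18 TPM) and Cdon (4.87 ± 0.184 to 10.4 ± 1.6 TPM) and the transducer Smo (38.7 ± 0.891 to 58 ± 2.6 TPM) rose. Among the 44 tested axon guidance genes 12 rose and 25 fell, against 33.2% and 33.6% of all tested genes. The receptor Robo1 rose from 0.14 ± 0.0257 to 20.3 ± 1.02 TPM, and Sema3c fell from 161 ± 19.8 to 29.6 ± 2.95 TPM.

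**Figure D3:**
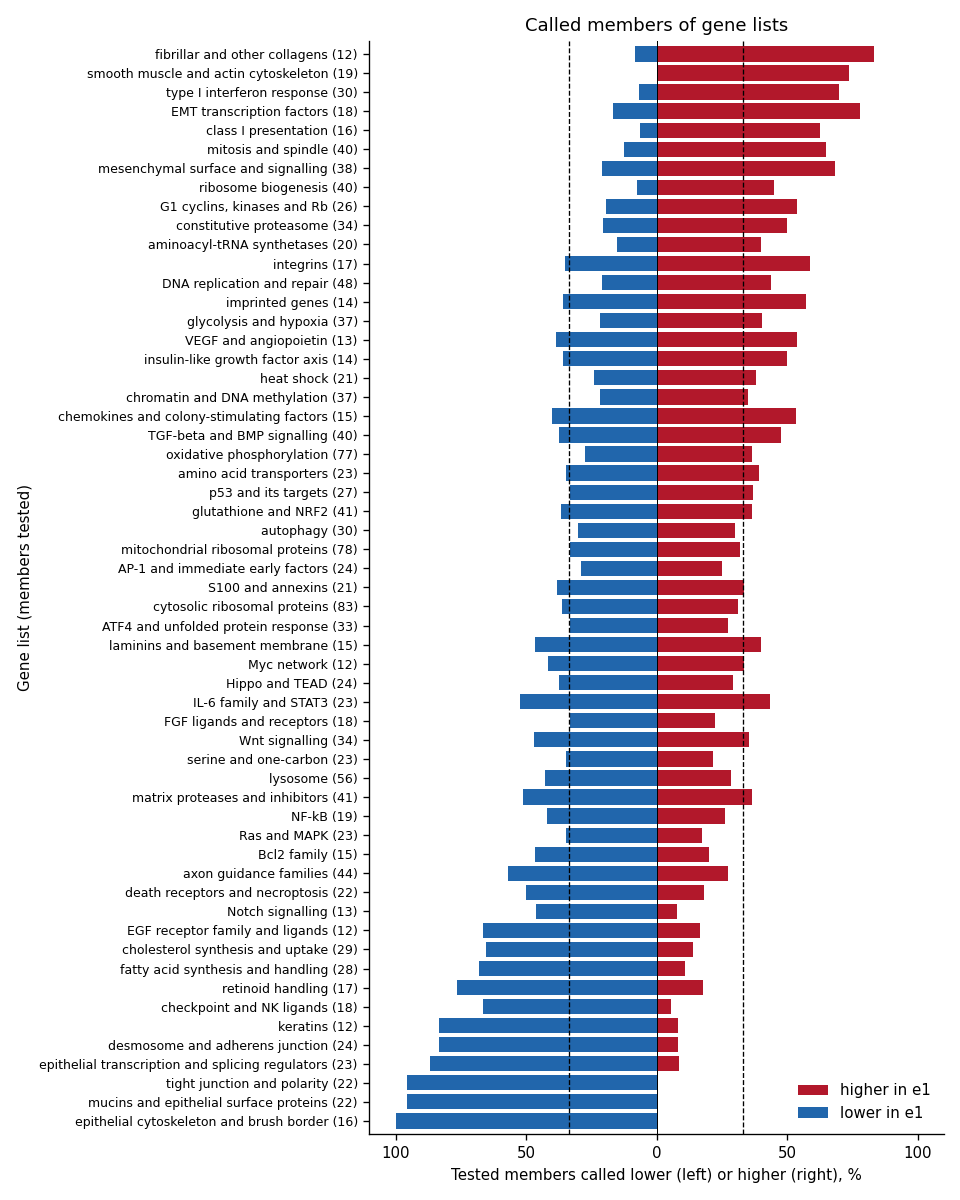
Share of tested members called higher (red, to the right) and lower (blue, to the left) in e1 for 57 gene lists of at least 12 tested genes, with the number tested beside each name, and dashed lines at the shares of all tested genes, 33.2% higher and 33.6% lower. Epithelial lists reach far to the left, interferon, collagen and smooth muscle lists far to the right, and the lists of ribosomal proteins and oxidative phosphorylation lie near the dashed lines on both sides.

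Secreted signals to leukocytes changed in both directions. Of 15 tested chemokines and colony-stimulating factors 8 rose and 6 fell, against 33.2% and 33.6% of all tested genes. The neutrophil attractant Cxcl5 fell from 93.9, 56 and 51.8 to 0.641, 1.47 and 1.14 TPM (-5.00 ± 0.24, limma adjusted p = 1.95e-06), Cxcl16 from 121 ± 3.99 to 4.62 ± 1.04 TPM, and Ccl20 from 13 ± 5.34 to 0.0675 ± 0.0609 TPM. The granulocyte factor Csf3 fell from 10.9 ± 2.06 to 1.03 ± 0.213 TPM. The monocyte attractant Ccl2 rose from 0.762, 0.458 and 0.453 to 27.3, 39.2 and 35.8 TPM, and the T cell attractants Ccl5 from 0, 0 and 0.204 to 34.3, 13.5 and 15.7 TPM and Cxcl10 from 3.09, 2.67 and 1.84 to 59.2, 24 and 23.9 TPM. Ccl5 and Cxcl10 were highest in e1 library 1, and Ccl2 was lowest there. Of 23 tested genes of a list of the IL-6 family, STAT3 signalling and related cytokines, 10 rose and 12 fell. The shares over all tested genes were 33.2% and 33.6%. Il1rn, the natural blocker of the IL-1 receptor, fell from 104 ± 4.07 to 0.272 ± 0.016 TPM and Il33 from 24.6 ± 2.75 to 2.72 ± 0.66 TPM. The shared receptor chain Il6st rose from 14.3 ± 0.454 to 50.9 ± 0.984 TPM and the feedback inhibitor Socs3 from 21.3 ± 4.68 to 54.4 ± 0.142 TPM. The NF-kB list had 5 of 19 higher and 8 lower, against 33.2% and 33.6% of all tested genes. Its inhibitor Nfkbia was higher (20.5 ± 1.16 to 43.5 ± 0.242 TPM) and the atypical inhibitor Bcl3 lower (32.1 ± 4.71 to 4.54 ± 0.767 TPM). The Nfkbia difference of 1.05 stood at 0.57 after centring by chromosome stretch. The adhesion targets of NF-kB parted: Icam1 fell from 16.9 ± 0.822 to 2.43 ± 0.102 TPM and Vcam1 rose from 16.2 ± 1.36 to 82.9 ± 13.5 TPM.

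Of 30 tested interferon-stimulated genes 21 were higher and 2 lower in e1, with a median of 1.27. Without e1 library 1 the counts were 21 and 4 and the median 1.07, and 22 of the 30 were higher in e1 library 1 than in either other e1 library, which held for 39.4% of all tested genes. Isg15, a ubiquitin-like modifier, was at 1.02, 0.996 and 1.23 TPM in parental cells and 66.5, 28.1 and 28.3 TPM in e1, and Ifit1, which binds foreign RNA, at 0.0991, 0.0231 and 0.114 and 22, 8.83 and 9.52 TPM. Library 1 stood above both others for each gene, and their differences without it were 3.81 and 3.24, against 4.21 and 3.63 with it. Isg20, a ribonuclease, fell from 57 ± 3.71 to 17.9 ± 2.55 TPM. Of 16 tested class I genes 10 rose and 1, a heavy chain, fell. The chaperone Tapbp rose from 28.7, 28.8 and 28.2 to 72.9, 74.2 and 74 TPM. The proteasome activator subunit Psme2 rose from 75.7, 86.3 and 77.2 to 240.4, 221 and 219.8 TPM. The groups did not overlap for either gene, as for 72.4% of all tested genes. H2-K1 was at 150.0, 149 and 135 TPM in parental cells and 48.6, 18.5 and 17 TPM in e1, a difference of -2.49 with all libraries and -2.96 without e1 library 1. Of 18 tested checkpoint and NK ligand genes 12 were lower and 1 was higher. Raet1d, a ligand of the NK receptor NKG2D, fell from 10.3 ± 1.11 to 0.668 ± 0.25 TPM, Nectin2 from 56.1 ± 8 to 9.51 ± 2.15 TPM and the galectin Lgals9 from 145 ± 10.4 to 26.1 ± 5.72 TPM. Pvr, bound by the receptors DNAM-1 and TIGIT, did not pass at 31.5, 29.8 and 29.8 TPM in parental cells and 60.4, 25.7 and 26.3 TPM in e1, and e1 library 1 lay above all parental libraries while the other 2 lay below them.

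Of 22 tested death receptor and necroptosis genes 11 were lower and 4 higher. Gsdmd, the pore protein of pyroptosis, fell from 53, 62.4 and 61.3 to 7.8, 11.8 and 12 TPM and Tnfaip3, an inhibitor of TNF signalling, from 26.9 ± 1.7 to 7.29 ± 1.82 TPM. The TNF receptor Tnfrsf1b rose from 4.62 ± 0.261 to 10.7 ± 1.92 TPM. In the Bcl2 family 7 of 15 were lower and 3 higher. The survival genes Bcl2l1, which codes for Bcl-xL, and Bcl2 fell, from 121, 116 and 114 to 43.1, 38.6 and 38.9 TPM and from 7.52, 7.11 and 6.69 to 2.48, 2.99 and 2.56 TPM. Mcl1, another survival gene, rose from 84.8, 89.7 and 84.1 to 117, 118 and 116 TPM. With libraries centred by chromosome stretch the calls of Mcl1 (0.11, limma adjusted p = 0.104) and Bax were lost. Bax, an effector of cell death, rose from 197 ± 16.9 to 243 ± 1.55 TPM and Pmaip1, an inhibitor of Mcl1, fell from 20 ± 1.78 to 10.9 ± 0.351 TPM. Of 8 tested complement and coagulation genes 6 were lower and 1 higher, and the secreted chaperone Clu, clusterin, fell from 2946, 2796 and 2751 to 75.9, 66.4 and 67.2 TPM.

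Most tested genes of 2 lists, cholesterol synthesis and uptake and fatty acid synthesis and handling, were lower in e1. Of 29 tested genes of cholesterol synthesis and uptake 19 were lower and 4 higher, with a median of -0.67. Tm7sf2, a sterol reductase of the synthesis, fell from 45.2, 37.8 and 35.1 to 5.91, 5.67 and 5.65 TPM. Abca1, which exports cholesterol, rose from 0.153 ± 0.0889 to 6.22 ± 1.92 TPM. In 24 of the 29 genes e1 library 1 lay above the other e1 libraries, against 39.4% of all tested genes, and without it the list had 21 lower and 5 higher. Of 28 tested genes of fatty acid synthesis and handling 19 were lower and 3 higher. Acaca, an enzyme of the synthesis, was called higher (25.1 ± 0.592 to 31.1 ± 4.22 TPM). Its difference of 0.29 stood at 0.13 after centring by chromosome stretch and was not called (limma adjusted p = 0.239). Pparg, a nuclear receptor of fat cells and epithelium, fell from 50.5, 70.6 and 66.5 to 6.22, 12.6 and 12.2 TPM and the carrier Fabp5 from 414, 289.7 and 290.4 to 32.9, 28.6 and 25.1 TPM. Plin2, which coats lipid droplets, rose from 242, 238 and 232 to 666, 613 and 617 TPM. Retinoid genes were lower in 13 of 17 and higher in 3. Rdh10, which makes retinaldehyde, fell from 369 ± 9 to 32.7 ± 3.56 TPM and the plasma carrier Rbp4 from 98.6 ± 4.06 to 0.676 ± 0.316 TPM, while the intracellular carrier Crabp2 rose from 0.165, 0.159 and 0.196 to 104, 173 and 164 TPM. The receptor Rara rose as well, from 16.6 ± 0.755 to 21.8 ± 0.814 TPM.

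Single enzymes of other metabolic lists changed widely. In the glutathione list 15 of 41 were higher and 15 lower, near the 33.2% and 33.6% of all tested genes. Its tested alpha-class transferases fell and mu-class transferases rose. Gsta1 fell from 68.6, 132 and 124 to 0.0643, 2.79 and 2.01 TPM and Gsta4 from 206, 264 and 265 to 15.9, 53.6 and 53.7 TPM, while Gstm1 rose from 45.6, 43.8 and 43.7 to 144, 270.0 and 275 TPM and Gstm2 from 4.86, 3.23 and 2.85 to 59.8, 75.5 and 77.6 TPM. These transferases have close copies, between which reads can be split. Gpx2, a glutathione peroxidase of gut epithelium, fell from 41.7 ± 11.9 to 0.0196 ± 0.0339 TPM, and the cystine carrier Slc7a11 from 6.92 ± 0.782 to 1.24 ± 0.508 TPM. In a list of glycolysis and hypoxia genes 15 of 37 were higher and 8 lower, against 33.2% and 33.6% of all tested genes. Its median was 0.08, with 4 genes higher and 3 lower by 1 or more. Ldhb, a subunit of lactate dehydrogenase, appeared in e1 at 7.8, 12.3 and 11.6 TPM after 0.296, 0.114 and 0.313 TPM. Pfkp, a phosphofructokinase, rose from 10.6 ± 0.502 to 31.7 ± 2.49 TPM. Of 56 lysosomal genes 16 were higher and 24 lower, against 33.2% and 33.6% of all tested genes. The sialidase Neu1 was lower at 3.3, 3.74 and 3.56 TPM after 43.5, 42.4 and 42 TPM. The sterol carrier Npc2 was higher at 127, 140.4 and 139 TPM after 66.3, 53.1 and 53.3 TPM. Its difference of 1.23 stood at 0.76 after centring by chromosome stretch.

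Most tested genes of mitosis rose by small amounts. Of 40 tested mitosis genes 26 were higher and 5 lower, with a median of 0.29, and Ccnb1, a mitotic cyclin, rose from 125 ± 4.49 to 225 ± 8.68 TPM. The G1 cyclins changed in composition. Ccnd1, cyclin D1, fell from 405, 485 and 478 to 266, 239.7 and 234 TPM and Ccne1 from 42.8 ± 1.37 to 24.2 ± 3.09 TPM, while Ccne2 rose from 26.3 ± 2.16 to 56.5 ± 5.55 TPM. Cdk4, the partner of the D cyclins, rose from 381, 372 and 365 to 764, 795 and 783 TPM, and its inhibitor gene Cdkn2a was well expressed in both lines and rose from 381, 409 and 399 to 707, 750.1 and 749 TPM. Cdkn1a, p21, fell from 9.68 ± 0.64 to 4.04 ± 0.751 TPM. Trp53 rose from 181, 208 and 211 to 394, 354 and 351 TPM and Myc from 150.0, 169.5 and 165 to 549, 418 and 411 TPM (1.49 ± 0.12, limma adjusted p = 2.55e-05). Max, the partner of Myc, rose from 47.1 ± 1.54 to 105 ± 12.4 TPM. With libraries centred by chromosome stretch Ccnb1 (0.84 to 0.27), Ccnd1 (-0.88 to -0.36), Ccne2 (1.07 to 0.54) and Max (1.13 to 0.57) all stayed called, with smaller differences. Of 11 tested Hox genes 8 were higher and 1 lower, with Hoxa10 at 2.07, 4.62 and 4.7 TPM in parental cells and 12.3, 14.9 and 14 TPM in e1.

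The small changes differed by chromosome. The 11870 tested genes with a position on chromosomes 1 to 19 or X in RefSeq (GRCm38.p6) were summarised per chromosome and in 149 consecutive stretches of 75 to 99 tested genes, a step chosen after the data were seen. On chromosome 5, 562 of 762 genes were called lower (73.8%) and 53 higher (6.96%), against 33.6% and 33.2% of all genes, and the median difference was -0.58. On chromosome 14, 274 of 382 were higher (71.7%) and 38 lower (9.95%), with a median of 0.58. These 2 chromosomes lay at the ends of the range. The medians of chromosomes 12 (0.50), 13 (0.49) and 3 (0.36) were also high, and those of chromosomes 19 (-0.40), 17 (-0.37) and 1 (-0.30) low. On chromosomes 2, 15 and 16 the medians were -0.001, -0.015 and -0.019.

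The shift was as large in each e1 library. Set against the parental mean, chromosome 5 had a median of -0.59, -0.56 and -0.57 in e1 libraries 1, 2 and 3, and chromosome 14 of 0.56, 0.60 and 0.59. The parental libraries themselves had medians of -0.10 to 0.07 over all chromosomes. Library 1, which stood apart for single genes, had the same sign and a like size on both chromosomes. Among genes with a mean of 20 TPM or more the medians of chromosomes 5 and 14 were -0.61 and 0.63.

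On 3 chromosomes the shift covered a part and ended within the chromosome. On chromosome 1 the first 4 stretches, 302 genes from 4490928 to 91374217, had medians of -0.59 to -0.50, and the other 5, to 195131570, had medians of -0.19 to -0.01. On chromosome 4 the first 3 stretches, to 89128226, had medians of 0.36 to 0.56, and the 6 beyond, where Cdkn2a lies, of 0.03 to 0.23. On chromosome 7 the first 5 stretches, to 47008414, had medians of 0.08 to 0.31 and the 6 beyond of -0.50 to -0.22. In all, 30 stretches had a median under -0.3 and 26 a median over 0.3. DNA copy number was not measured in these samples, and its part in these shifts was not tested.

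**Figure D4:**
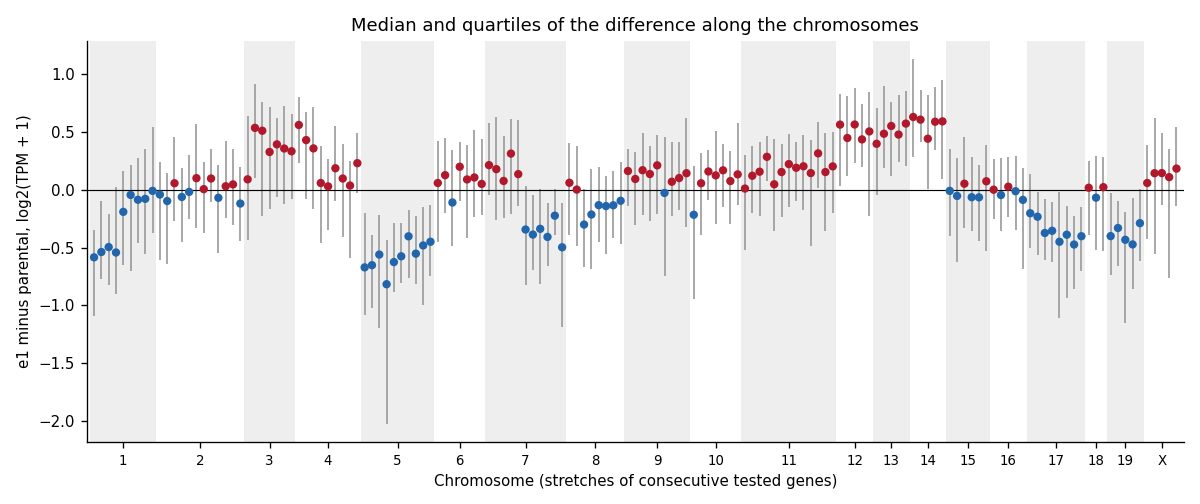
Median difference, e1 minus parental on the log2(TPM + 1) scale, of 149 stretches of 75 to 99 consecutive tested genes in chromosome order, with bars for the quartiles and shading to separate chromosomes 1 to 19 and X. Whole chromosomes 5, 17 and 19 lie below 0 and 12, 13 and 14 above it, while 1, 4 and 7 step within the chromosome.

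Genes of the basic machinery of the cell showed the same split. The lists of cytosolic and mitochondrial ribosomal proteins, oxidative phosphorylation, proteasome, ribosome biogenesis and aminoacyl-tRNA synthetases hold 329 tested genes with a position. Of the 75 on chromosomes 1, 5, 17 and 19, 53 were lower and 1 was higher, with a median of -0.45. Of the 48 on chromosomes 3, 12, 13 and 14, 44 were higher and 2 lower, with a median of 0.56. The other 206 had 75 higher and 35 lower, with a median of 0.11. Those chromosomes were chosen for their medians, which these genes also enter, so the counts describe and do not test. Rpl9, a ribosomal protein on chromosome 5, 65388364 to 65391431, fell from 4057, 3361 and 3234 to 1975, 2176 and 2168 TPM and Rps24, on chromosome 14, 24490678 to 24496960, rose from 1682, 1672 and 1614 to 2473, 2821 and 2831 TPM. Both are parts of 1 particle, and the groups did not overlap for either, as for 72.4% of all tested genes. With libraries centred by chromosome stretch neither was called (-0.17 and 0.07).

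When each library was centred on the median of its stretch, an alternative added after the data were seen, 3530 genes were called higher and 3630 lower. Of the 8120 calls, 5921 kept their direction and call, 150 were called in the other direction, and of the 2559 calls of 1 or more 2541 kept theirs. After centring, 21 of 22 tight junction genes were lower and 21 of 30 interferon genes higher. Lists with small changes moved more. Oxidative phosphorylation went from 28 higher and 21 lower to 26 and 6, ribosomal proteins from 26 and 30 to 9 and 20, and DNA replication from 21 and 10 to 32 and 4. For the second line, escape e2, medians against the same parental libraries are given side by side without a test of the difference. Chromosome 5 was at -0.01, chromosome 14 at 0.01, chromosome 13 at 0.72 and chromosome 16 at -0.66 in e2.

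The e1 library that stood apart was examined by leaving it out. Without e1 library 1, 4536 genes were called higher (37.3%) and 4381 lower (36.0%), more than with it. Of the 8120 calls made with all 6 libraries 7968 were called again, all in the same direction, 152 were lost, and 949 genes were called only without it. The difference moved by more than 1 for 8 genes and by more than 0.5 for 59. The 30 most changed genes, in equal numbers higher and lower, were taken from called genes at 10 TPM or more without overlap between groups. All 30 were called in the same direction without e1 library 1. Their choice by call, size and lack of overlap left little room for another outcome, so this count does not test the calls.

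The genes that set library 1 apart fell into groups. It lay below both other e1 libraries in 73 of 77 oxidative phosphorylation genes, 66 of 83 ribosomal protein genes and 45 of 56 lysosomal genes, against 48.9% of all 12160 tested genes. It lay above both in 38 of 40 ribosome biogenesis genes, 19 of 20 aminoacyl-tRNA synthetases, 28 of 34 proteasome genes and 24 of 29 cholesterol genes, against 39.4% of all. Among genes at 10 TPM or more in e1, its largest excesses were in Pdgfb (29.9, 9.64 and 9.66 TPM in e1 libraries 1, 2 and 3), Tagln, Bst2 (139, 48.8 and 53 TPM), H2-K1, Cxcl10 and Ctgf (203, 80 and 83.6 TPM). Bst2 and Ctgf are known as an interferon-stimulated gene and a target of YAP. Apart from small RNA genes, its largest deficits were in the metal-binding Mt2 (28.4, 99.8 and 110.3 TPM), the aldehyde dehydrogenase Aldh3a1 (15.4, 54.5 and 53.4 TPM), Gsta4 and Id3 (21.6, 72.1 and 68.8 TPM). Libraries 2 and 3 lay close together for each of these genes. Some list counts moved without library 1. Ribosome biogenesis went from 18 higher and 3 lower to 19 and 10 without it, aminoacyl-tRNA synthetases from 8 and 3 to 7 and 7, and oxidative phosphorylation from 28 and 21 to 39 and 21. Higher calls went from 4 to 7 in the death receptor list, from 3 to 6 in the Bcl2 family and from 1 to 3 among checkpoint and NK ligands. Bst2 did not pass with all libraries (-0.46 ± 0.41, limma adjusted p = 0.359) and stood at -0.94 without library 1 (limma adjusted p = 0.00049). Aldh3a1 did not pass either (0.42, limma adjusted p = 0.483) and was called higher without it (limma adjusted p = 1.4e-05).

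**Figure D5:**
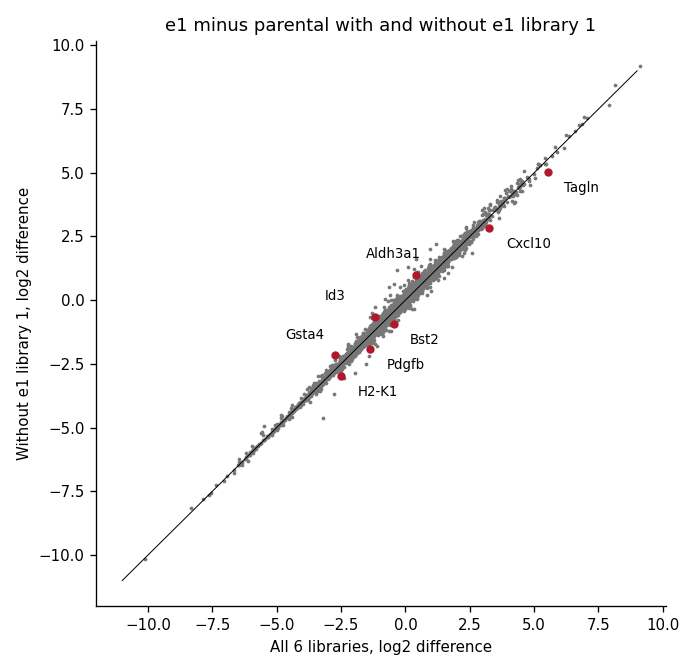
Difference between e1 and parental on the log2(TPM + 1) scale with all 6 libraries on the x axis and without e1 library 1 on the y axis for the 12160 tested genes, with a line where the 2 are equal. Named in red are 8 of the genes in which e1 library 1 lay farthest from the other e1 libraries, and the points lie along the line over the whole range.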

How the data were processed

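RNA-seq gene values were analysed for 3 parental and 3 e1 libraries. The authors deposited TPM per gene, and a table of log2-scale rlog values that served as an alternative. The submitters' processing notes name Salmon, DESeq2 and the mm10 build, with versions not given in the sources used here. Since TPM keeps no depth, no counting interval was computed. Genes that reached 1 TPM in 3 or more of these libraries were tested on log2(TPM + 1) with limma 3.58.1 in R 4.3.3 (moderated test with trend and robust variance, Benjamini-Hochberg adjustment over all 12160 genes), and tables were made with Python 3.11.15 and pandas 2.3.3. The steps were tested on simulated data.

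Named genes were the 15 highest and 15 lowest called genes at 10 TPM or more without overlap, up to 3 called members per direction of each list at 5 TPM or more, a fixed set, and the 10 genes with the largest gap above and below for e1 library 1. Lsr and Mir6236 were named after their values were seen. Some genes that this rule or a list holds are not reported here. The comparison, the genes and the lists were chosen with earlier results of these data known. Positions came from RefSeq (GRCm38.p6). The 4 tested genes with a start inside the opening gap of 3000000 bases, coordinates of unlocalized scaffolds, were left out of the chromosome summaries. The alternatives were another pseudocount (0.1), no filter, a 5 TPM filter, median-ratio scaling, rlog values, all 9 libraries, a replicate block, no trend or robustness and leaving out each library. Removing Mir6236, removing both libraries numbered 1, and centring by chromosome stretch were chosen after seeing the data.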

Additional observations from a re-analysis of the deposited data

How the results depend on the processing

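The 4 counts of called genes stayed within 1.5 times their value in all 17 alternatives. Leaving out each library in turn gave 3459 to 4536 genes higher, 3552 to 4381 lower, 988 to 1045 higher by 1 or more and 1530 to 1598 lower by 1 or more. The 5 TPM filter, which tests 9875 genes, gave 3387 higher and 3286 lower, and removing both libraries numbered 1 gave 4886 and 4954. Deviations from the group means correlated at -0.135, 0.022 and -0.02 between same-numbered libraries and at -0.187 to 0.14 between the others. The labels do not say whether a number is shared between groups. These weak values cannot settle it, since deviations from a mean of 3 libraries depend on each other. With a replicate block 3747 genes were higher and 3853 lower. Of the genes named in the report, 2 changed sign with a call. Gata4 stood at -0.21 with libraries centred by chromosome stretch. Pvr, which did not pass with all libraries, ranged from -0.21 (without e1 library 1) to 0.39 (without e1 library 2) as single libraries were left out, and stood at -0.19 without both libraries numbered 1. The cause was not tested. Centring by chromosome stretch moved 48 of 183 list counts and medians beyond their limit, the 5 TPM filter 45, no filter 44, and leaving out e1 library 1 moved 24. Depth is unknown from TPM, and levels near 0 cannot be told from a lack of reads.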

Other observations

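Further lists held single genes with wide changes. Of 24 tested Hippo and TEAD genes 7 were higher and 9 lower, near the 33.2% and 33.6% of all tested genes. Targets of YAP went both ways. Cyr61 rose from 263, 348 and 349 to 1059, 1022 and 1004 TPM. Ankrd1 fell from 719 ± 30.7 to 400 ± 71.1 TPM (SD, n = 3 each). Its difference of -0.86 stood at -0.38 after centring by chromosome stretch. Ctgf did not pass (-0.90, limma adjusted p = 0.0603) and stood at -1.33 without e1 library 1 (limma adjusted p = 2.48e-06). The coactivator gene Wwtr1, which codes for TAZ, rose from 43.3 ± 2.68 to 103 ± 0.733 TPM (SD, n = 3 each), a difference of 1.23 that stood at 0.68 after centring by chromosome stretch. Of 30 tested autophagy genes 9 were higher and 9 lower, also near the shares of all tested genes. The receptor Sqstm1, p62, rose from 275, 225 and 222 to 411, 554 and 542 TPM, and another receptor of the same pathway, Optn, fell from 29.4, 36.9 and 36.4 to 1.76, 3.35 and 3.32 TPM. Of 10 tested prostaglandin and eicosanoid genes 5 were lower and 1 higher. Hpgd, which degrades prostaglandins, was at 9.72, 7.28 and 6.47 TPM in parental cells and was listed at 0 in e1, and the cyclooxygenase Ptgs1 fell from 28.7 ± 6.36 to 2.98 ± 0.772 TPM. Pla2g7, a phospholipase that acts on platelet-activating factor, rose from 3.54 ± 1.04 to 58.8 ± 10 TPM.

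The small RNA gene Mir6236 alone held 3.92% to 9.48% of the TPM total of a library, at 94833, 39208 and 68945 TPM in the parental libraries and 70076, 58702 and 63826 TPM in e1. Removing it and rescaling gave 4065 genes higher and 4166 lower.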
